A study of Mus musculus with 4 samples.

Results

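The replication-dependent histone genes encode the core histones H2A, H2B, H3 and H4 and the linker histone H1, and accessible chromatin at their promoters was examined by FAIRE-seq in EpRas cells. The members were the 67 protein-coding genes of the mm10 GENCODE annotation whose symbols start with Hist1h, Hist2h, Hist3h or Hist4h, of 21951 protein-coding genes in all. FAIRE (formaldehyde-assisted isolation of regulatory elements) recovers DNA that is poorly crosslinked to nucleosomes, and a peak marks a place where such DNA is enriched. Every peak whose middle lay within 2 kb of a transcription start site of a member was taken. Merging the peaks of all libraries gave 40 regions at histone genes, of 9989 regions at protein-coding promoters and 35796 regions in all.

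EpRas cells are EpH4 mouse mammary gland epithelial cells transformed with oncogenic H-Ras, so every group carried the Ras transgene, and every group had been transfected with siRNA. The 4 groups, all at day 4, received control siRNA and no TGF-β (siControl), control siRNA and 1 ng/ml TGF-β (siControl + TGF-β), or the same TGF-β after 1 of 2 siRNA sets that target the ETS family transcription factors Etv4 and Etv5 (set 1 and set 2). Each group was represented by 1 peak list from 1 cell line, in which 2 biological replicates may have been combined, so no spread between replicates could be measured and no test was made. The files do not give the share of cells in S phase, and FAIRE does not measure how far the siRNAs lowered Etv4 and Etv5.

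Replication-dependent histone genes are transcribed mainly in S phase, when newly made DNA has to be packed into nucleosomes, and their mRNAs end in a stem-loop in place of a poly(A) tail. They lie in clusters, the largest being Hist1, and many H2A and H2B genes are arranged head to head around a shared short promoter. Their promoters carry short elements known from earlier work, among them the TATA box, the CCAAT box bound by NF-Y, the octamer bound by Oct-1 (encoded by Pou2f1) in H2B promoters, and an AC-rich box in H1 promoters.

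Promoter sequences are shown first because the histone types differed in where their FAIRE peaks lay. The RefSeq promoter table of GRCm38 holds 250 bases before and 50 bases after each start. An entry on the same strand and near the GENCODE start was found for 61 of the 67 members. No entry so placed was found for Hist1h1d, Hist1h2bc, Hist1h3a, Hist1h3f, Hist2h2be and Hist2h4. The stretches below run 5′ to 3′ and stop at the start of the transcript. For single genes this is the RefSeq start, whereas summit distances were measured from GENCODE starts. Capitals mark the TATA box TATAAA, the CCAAT box, the octamer ATTTGCAT and the H1 box AAACACA on either strand. The first pair of sequences fills the whole space between the starts of head-to-head H2A and H2B genes on the plus strand, chr13:23683949-23684198 for Hist1h2ac with Hist1h2bc and chr13:22042945-22043213 for Hist1h2ag with Hist1h2bj.
Hist1h2ac/Hist1h2bc: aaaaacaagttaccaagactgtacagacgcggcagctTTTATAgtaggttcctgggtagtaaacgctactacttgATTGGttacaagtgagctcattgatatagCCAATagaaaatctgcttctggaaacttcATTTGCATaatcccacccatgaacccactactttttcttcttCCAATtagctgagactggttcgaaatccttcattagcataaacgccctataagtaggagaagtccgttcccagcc
Hist1h2ag/Hist1h2bj: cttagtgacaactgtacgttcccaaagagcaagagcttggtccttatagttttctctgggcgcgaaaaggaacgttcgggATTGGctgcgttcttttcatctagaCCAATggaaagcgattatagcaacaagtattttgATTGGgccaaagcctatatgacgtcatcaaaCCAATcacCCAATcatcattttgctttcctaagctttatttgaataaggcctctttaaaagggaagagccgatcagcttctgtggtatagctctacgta

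The next stretches are the 140 bases upstream of single genes: the H2B gene Hist2h2bb (chr3:96269560-96269699, plus strand), which had the highest mean signal of the family, and the H3 gene Hist1h3e (chr13:23562386-23562525, minus strand) and the H4 gene Hist4h4 (chr6:136804432-136804571, minus strand), which had peaks at their starts in every library. The RefSeq start lies 52 bp upstream of the GENCODE start in Hist2h2bb and 16 bp upstream in Hist1h3e and Hist4h4.
Hist2h2bb: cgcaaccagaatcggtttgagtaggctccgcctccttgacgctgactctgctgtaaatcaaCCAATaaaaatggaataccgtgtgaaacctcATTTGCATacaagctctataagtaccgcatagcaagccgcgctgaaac
Hist1h3e: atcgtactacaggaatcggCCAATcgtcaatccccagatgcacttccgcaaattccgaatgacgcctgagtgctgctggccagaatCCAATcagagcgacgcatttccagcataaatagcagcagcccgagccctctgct
Hist4h4: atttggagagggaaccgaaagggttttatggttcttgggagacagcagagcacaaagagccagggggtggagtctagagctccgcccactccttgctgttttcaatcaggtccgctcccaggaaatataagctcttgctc
The last stretches belong to genes without a peak summit at the start in any library, namely the H1 genes Hist1h1c (chr13:23738667-23738806, plus strand) and Hist1h1b (chr13:21780626-21780765, minus strand) and the testis H2B gene Hist1h2ba (chr13:23934157-23934296, minus strand).
Hist1h1c: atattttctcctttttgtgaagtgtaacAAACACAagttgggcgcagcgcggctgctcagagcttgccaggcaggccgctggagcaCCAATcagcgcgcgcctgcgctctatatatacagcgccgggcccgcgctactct
Hist1h1b: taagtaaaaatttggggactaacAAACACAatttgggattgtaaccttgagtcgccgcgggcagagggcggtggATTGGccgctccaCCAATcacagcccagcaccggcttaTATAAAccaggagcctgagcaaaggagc
Hist1h2ba: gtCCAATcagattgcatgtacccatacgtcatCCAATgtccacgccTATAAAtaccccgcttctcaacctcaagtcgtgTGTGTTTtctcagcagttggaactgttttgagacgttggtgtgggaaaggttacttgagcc

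A CCAAT box on either strand was found in all 5 H1, all 18 H2A, all 16 H2B and all 10 H3 promoters with an entry but in 3 of the 12 H4 promoters (25%), beside 38.2% of 21263 protein-coding promoters. The H2A and H2B promoters often held several, with 54 boxes in the 18 H2A promoters and 53 in the 16 H2B promoters, where the promoters of head-to-head genes overlap and share boxes. The octamer occurred in 7 H2A and 6 H2B promoters and in no H1, H3 or H4 promoter, beside 1.66% of all promoters. The H1 box occurred in 4 of 5 H1 promoters, between 112 and 117 bases before the start, and in 6.15% of all promoters.

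The TATA box word TATAAA, on either strand and at any position, was present in 34 of 61 members (55.7%) against 12.6% of all promoters. Its matches lay 27 to 33 bases before the start in H1 promoters. In H4 promoters they ranged from 250 bases before to 41 after it, so a match need not be a working TATA box. The GC box GGGCGG was present in 23 members (37.7%) against 46.2%. GC boxes were found in 9 of 12 H4 and 4 of 5 H1 promoters but in 1 of 16 H2B promoters. Only exact words were searched, so other forms of a site would be missed. The 8-letter ETS word CCGGAAGT and HINFP word CGGACGTT were found in no member, beside 5.15% and 0.273% of all promoters. The HINFP word is so rare that its absence from 61 members is not informative. The AP-1 motif TGANTCA (N is any base) was found in 3 members (4.92%) against 6.99%. These are matches of letters and not measured binding. The CCAAT box and the octamer did not separate the promoters with peaks from those without: the CCAAT box was found in 29 of 31 members with a peak in every library and in 14 of 18 members with none, and the octamer in 7 of 31 and 2 of 18. The member promoters had a lower GC content than all promoters, with a median of 45.3% against 56.3%, and a higher ratio of observed to expected CpG, with a median of 0.75 against 0.567.

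**Figure D1:**
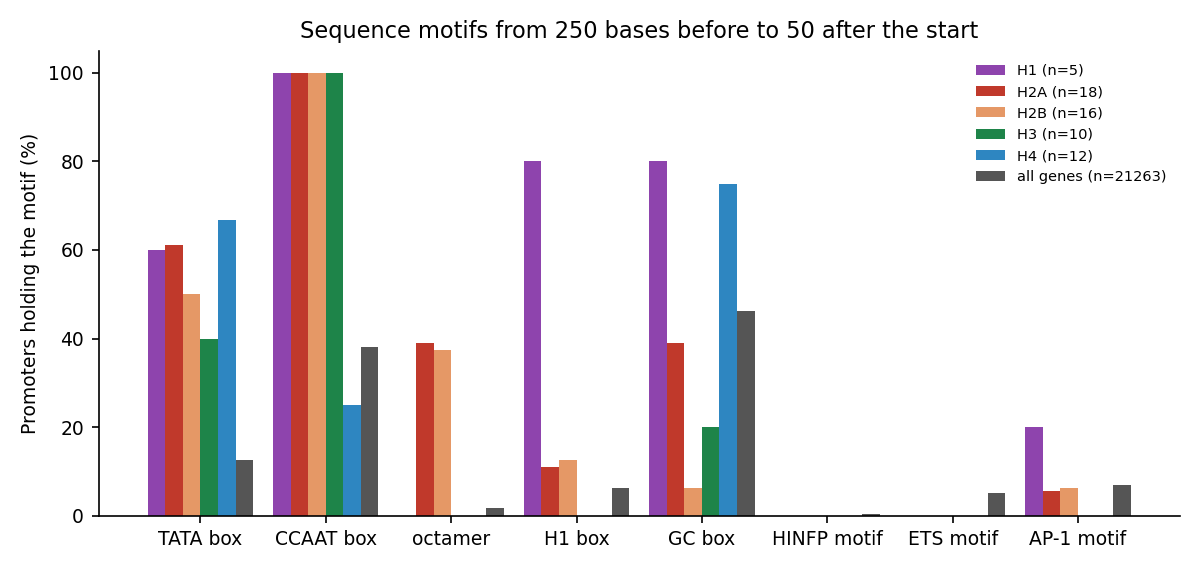
Share of RefSeq promoters holding each motif on either strand (vertical axis, percent), for the histone types and for 21263 protein-coding promoters. The CCAAT box reached 100% in H1, H2A, H2B and H3 and 25% in H4, the octamer was found among H2A and H2B, and the H1 box in 80.0% of H1 promoters.

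Histone genes had a FAIRE peak within 2 kb of the start more often than protein-coding genes in general. A peak was present at 46 of 67 members (68.7%) in siControl, 49 (73.1%) in siControl + TGF-β, 40 (59.7%) in the set 1 library and 40 (59.7%) in the set 2 library. Fewer cells with an open promoter and a less open promoter in each cell cannot be told apart in such bulk samples. The corresponding shares of all protein-coding genes were 36.1%, 38.1%, 34.2% and 27.3%. The member calls came from 32, 36, 28 and 27 peaks in the same order of libraries. Neighbouring members share peaks, so called members are not separate observations. In all, 36 members had a peak in every library, 13 in 1 to 3 libraries and 18 in none. The lists differed in length, from 14925 peaks with set 2 to 28754 peaks in siControl + TGF-β, at estimated depths of about 15300000 to 20700000 reads, with set 2 the deepest. When every list was cut to its 14925 most significant peaks, the members called were 39, 38, 26 and 40 in the same order, or 58.2%, 56.7%, 38.8% and 59.7% of members against 29.9%, 27.8%, 27.7% and 27.3% of all genes, and set 2 then had no fewer members called than siControl + TGF-β. Narrower windows took fewer members, with 39, 41, 33 and 33 called at 1 kb and 36, 37, 32 and 30 at 500 bp. At 1 kb these were 49.3% to 61.2% of members, against 25.8% to 35.7% of all genes. At 500 bp they were 53.7%, 55.2%, 47.8% and 44.8% of members, against 32.2%, 33.7%, 30.1% and 24.4% of all genes. The excess of members was thus smaller at 500 bp than at 2 kb in every library. Distances of peaks were also measured to the nearest member start. The most distant peak inside 2 kb lay 1326 bp from Hist1h2ab, with a fold enrichment of 4.66 in siControl. The nearest outside lay 2959 bp from Hist1h1d, with 10.1 in siControl + TGF-β. Some members were counted only through a peak nearer to another member, such as Hist1h4i through the Hist1h2ag and Hist1h2bj region. Calls of such members depend on the width of the window.

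The peaks of H2A and H2B genes lay at the starts, whereas those counted for H1 genes mostly did not. With the stricter demand that a peak summit lie within 250 bp of the start, 34, 36, 31 and 29 members were called in siControl, siControl + TGF-β, set 1 and set 2, that is 50.7%, 53.7%, 46.3% and 43.3%, against 29.8%, 31.1%, 27.7% and 22.5% of all protein-coding genes. H2B genes, which encode a partner of H2A, were called most often, at 14, 14, 13 and 12 of 18. The H2A genes followed with 12, 12, 10 and 10 of 18. H4 genes were called at 5, 6, 5 and 4 of 13, and H3 genes at 2, 4, 3 and 3 of 12. Of the 6 H1 genes only Hist1h1e was called, and only in siControl. Since H2A and H2B neighbours share peaks, these genes are not separate observations.

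**Figure D2:**
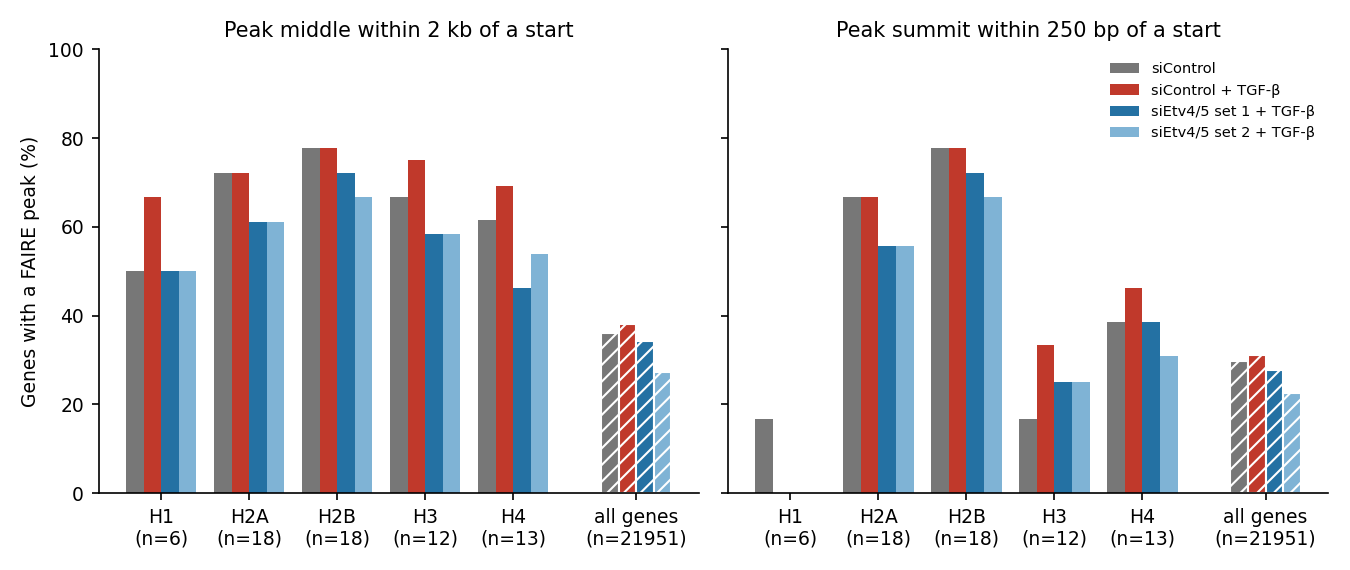
Share of genes with a FAIRE peak (vertical axis, percent) by histone type and library, for a peak middle within 2 kb of a start (left) and a peak summit within 250 bp (right). Hatched bars give all 21951 protein-coding genes. The H2A and H2B bars stayed above 50% under both rules, whereas under the stricter rule H1 had 1 bar, 16.7% in siControl.

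The reads were trimmed to 36 bases, and repeated gene copies limit where such reads can be placed. Within 500 bp of the start, the median share of 36-base words that occur once in the genome was 64.3% for members and 100% for all genes. It was 99.4% for H1, 50.8% for H2A, 52.1% for H2B, 63.8% for H3 and 78.3% for H4. The types with the most calls at the start were thus those with the fewest unique words, and H1 had the most unique words and the fewest such calls. Of the 50 members with at least 50% unique words, 78.0%, 82.0%, 70.0% and 68.0% had a peak within 2 kb in siControl, siControl + TGF-β, set 1 and set 2. Of the 8 members under 5%, 1 had a peak, in siControl + TGF-β, and among all 649 such genes 0.616% to 0.77% had one. How the authors treated reads with several equally good positions is not given in the sources used here.

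The 18 members without a peak in any library fell into separate kinds. Hist1h2ao, Hist1h2ap, Hist1h2bq and Hist1h2br had no unique word at all within 500 bp of the start, and Hist1h4m, Hist1h4n and Hist2h3c1 had 3.3% to 4.2%. These genes lie in repeats in which 95.8% to 100% of the words were shared with another member. Hist2h2aa1 and Hist2h2aa2 had 33.9% and 27.8% unique words. Unique words alone did not separate called from uncalled genes, since 41.2%, 47.1%, 29.4% and 35.3% of the 17 members under 50% had a peak in the same order of libraries, among them Hist1h2ad, with 39% unique words, in 3 libraries. The part of uniqueness in the missing calls was not tested. The other 9 had at least 50% unique words. They were the testis genes Hist1h1t, Hist1h2aa and Hist1h2ba, known for expression in male germ cells, together with the H1 gene Hist1h1a, the H3 genes Hist1h3b and Hist1h3i, the H4 genes Hist1h4b and Hist1h4k, and Hist3h2ba.

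**Figure D3:**
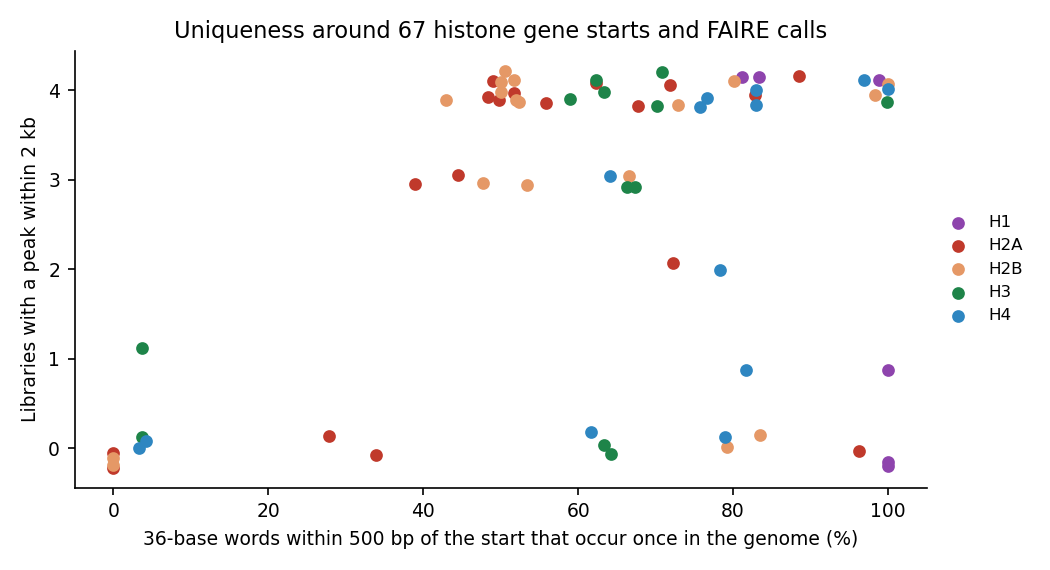
Share of 36-base words within 500 bp of a start that occur once in the genome (horizontal axis, percent) against the number of libraries with a peak within 2 kb (vertical axis, points spread slightly around 0 to 4 for legibility). Each point is 1 of 67 histone genes, coloured by type. The genes under 5% sit at 0 libraries, apart from Hist2h3c2 at 1, and 9 genes with at least 50% also sit at 0.

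Peak summits lay just upstream of the starts. The median summit was 90 bp upstream over the 40 regions and 49 bp upstream over all promoter regions, 32 of 40 summits (80.0%) against 75.7% were upstream, and 30 of 40 (75%) against 72.6% were within 250 bp. There were 13 head-to-head pairs with starts 176 to 660 bp apart (median 268 bp), 12 of them an H2A with an H2B gene. In 8 pairs a peak was called in every library, in 2 pairs in 3 libraries and in 3 pairs in none, and wherever a pair was called a summit lay between the 2 starts.

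In 10 of the 40 regions the summit lay more than 250 bp from a member start, and no annotated start of any other gene lay within 250 bp of these summits. The H1 genes had the clearest cases. In Hist1h1c the summit lay 935 bp downstream of the start, inside the gene, with a fold enrichment of 5.64 in siControl, 6.11 in siControl + TGF-β, 5.71 in set 1 and 5.62 in set 2. In Hist1h1b it lay 1155 bp downstream, 413 bp beyond the end of the gene, with 7.15, 8.89, 5.43 and 8.52. Neither gene had a summit at its start in any library, although the sequences above hold a CCAAT box and an H1 box in both. Hist1h1e had a summit 11 bp upstream of its start in siControl (6.76) and in no other library, where it was counted through the neighbouring Hist1h2be region, and Hist1h1d was counted through a peak near Hist1h4f in siControl + TGF-β. Hist1h1a and the testis gene Hist1h1t had no peak.

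The other summits away from starts were spread over the H3 and H4 genes and 1 H2A gene. Hist1h3f had a summit 321 bp and Hist2h4 one 916 bp downstream of the GENCODE start, inside the annotated gene, both in every library. Neither gene had a RefSeq start near its GENCODE start, so these places rest on the GENCODE annotation alone. Whether these summits lie in the gene body or at another start was not tested. Hist1h3e had a second summit 1004 bp upstream in every library. Hist1h4j had one 751 bp upstream in siControl + TGF-β and set 2 and one 491 bp inside in siControl. Hist1h4h, Hist1h2ab and Hist2h3c2 had summits 737 bp downstream, 1330 bp upstream and 1090 bp downstream, in 1, 2 and 1 libraries.

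The signal at histone genes was moderate against other promoters, and their local background was high. Fold enrichment is the number of fragments at the summit over the local background, each with 1 added. Its median over the member regions was 7.61 in siControl, 8.52 in siControl + TGF-β, 7.6 in set 1 and 6.5 in set 2, against 8.8, 9.17, 8.43 and 7.55 over all promoter regions. The fragments at the summit had medians of 25.5, 28.5, 24 and 21 against 24, 26, 24 and 23. The local background corresponded to a median of 188, 194, 179 and 189 reads in 10 kb against 138, 143, 146 and 169. The background was above the promoter median in 31 of 32, 33 of 36, 27 of 28 and 20 of 27 member regions.

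By locus, the Hist1 genes on chromosome 13 fell into 4 groups separated by at least 100 kb. The first, at chr13:21715763-21836665, holds 18 genes, of which 9 were called in every library and 8 in none, the latter including the 6 Hist1 copies with under 5% unique words. The second, at chr13:22035164-22043676, holds Hist1h2ah, Hist1h2bk, Hist1h2ag, Hist1h2bj and Hist1h4i, and all 5 were called in every library. These calls came from 2 regions, 1 in each head-to-head pair. Hist1h4i was counted only through the Hist1h2ag and Hist1h2bj region. The third, at chr13:23531050-23764406, holds 29 genes, of which 14 were called in every library, 11 in 1 to 3 and 4 in none. In that group 23 and 25 genes were called in siControl and in siControl + TGF-β, and 18 and 17 with set 1 and set 2. The fourth holds the testis pair Hist1h2ba and Hist1h2aa at chr13:23933773-23934851, with no peak in any library and 83.5% and 96.3% unique words.

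Hist2, at chr3:96219865-96270132, holds 10 genes, of which 6 were called in every library. The Hist2h2bb region gave the highest mean fold enrichment of the family, with 9.23 in siControl, 12.1 in siControl + TGF-β, 12.8 in set 1 and 7.58 in set 2. The Hist2h2ab region, which also lies within 2 kb of Hist2h2ac and Hist2h2be, gave 8.43, 5.59, 7.61 and 6.44. The region between Hist2h2ac and Hist2h2be gave 7.97, 7.6, 5.05 and 5.24. Unlike these, Hist2h4 had the region inside the GENCODE gene in every library (6.29, 8.9, 6.07 and 7.8). A region 133 bp upstream of its GENCODE start was called only in siControl + TGF-β (9.74) and set 1 (7.85). Hist2h3b had a region of its own in set 1 (7.35) and set 2 (6.62), and Hist2h3c2 was called only in siControl + TGF-β (7.4). Hist2h2aa1, Hist2h2aa2 and Hist2h3c1 had no peak.

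Hist3 on chromosome 11 and Hist4 on chromosome 6 are small loci. Hist3h2a, an H2A gene, gave 12.2 in siControl, 8.99 in siControl + TGF-β, 6.29 in set 1 and 7.84 in set 2, the highest value of the family in siControl. Its neighbour Hist3h2ba, whose start is 5.76 kb away, had no peak. Hist4h4, an H4 gene, gave 9.06, 11, 7.87 and 6.92.

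The strongest regions in the Hist1 locus showed different orders of the libraries. The Hist1h2ah and Hist1h2bk pair (chr13:22035571-22035873) gave a fold enrichment of 11.4 in siControl, 11.6 in siControl + TGF-β, 9.68 in set 1 and 7.04 in set 2. The region inside the GENCODE gene Hist1h3f (chr13:23544244-23544483) gave 11.2, 14, 8.06 and 6.13, with 33, 45, 24 and 16 fragments at the summit. The neighbouring Hist1h2bh region, between the starts of Hist1h2bh and Hist1h3f, gave 10.3, 11.1, 7.8 and 8.19. In these regions both siRNA libraries lay below both siControl libraries. The Hist1h3e region at the start gave 9.51, 9.23, 9.71 and 6.5, and the one 1004 bp upstream 6.39, 10.1, 9.42 and 7.71. The Hist1h4c region gave 8.52, 8.72, 9.3 and 7.03. Here set 1 was not below siControl + TGF-β by more than a small step, and set 2 was the lower siRNA library. The pair Hist1h2ag and Hist1h2bj, within 2 kb of Hist1h4i, gave 8.32, 8.12, 8.33 and 8.92, with little difference between libraries.

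**Figure D4:**
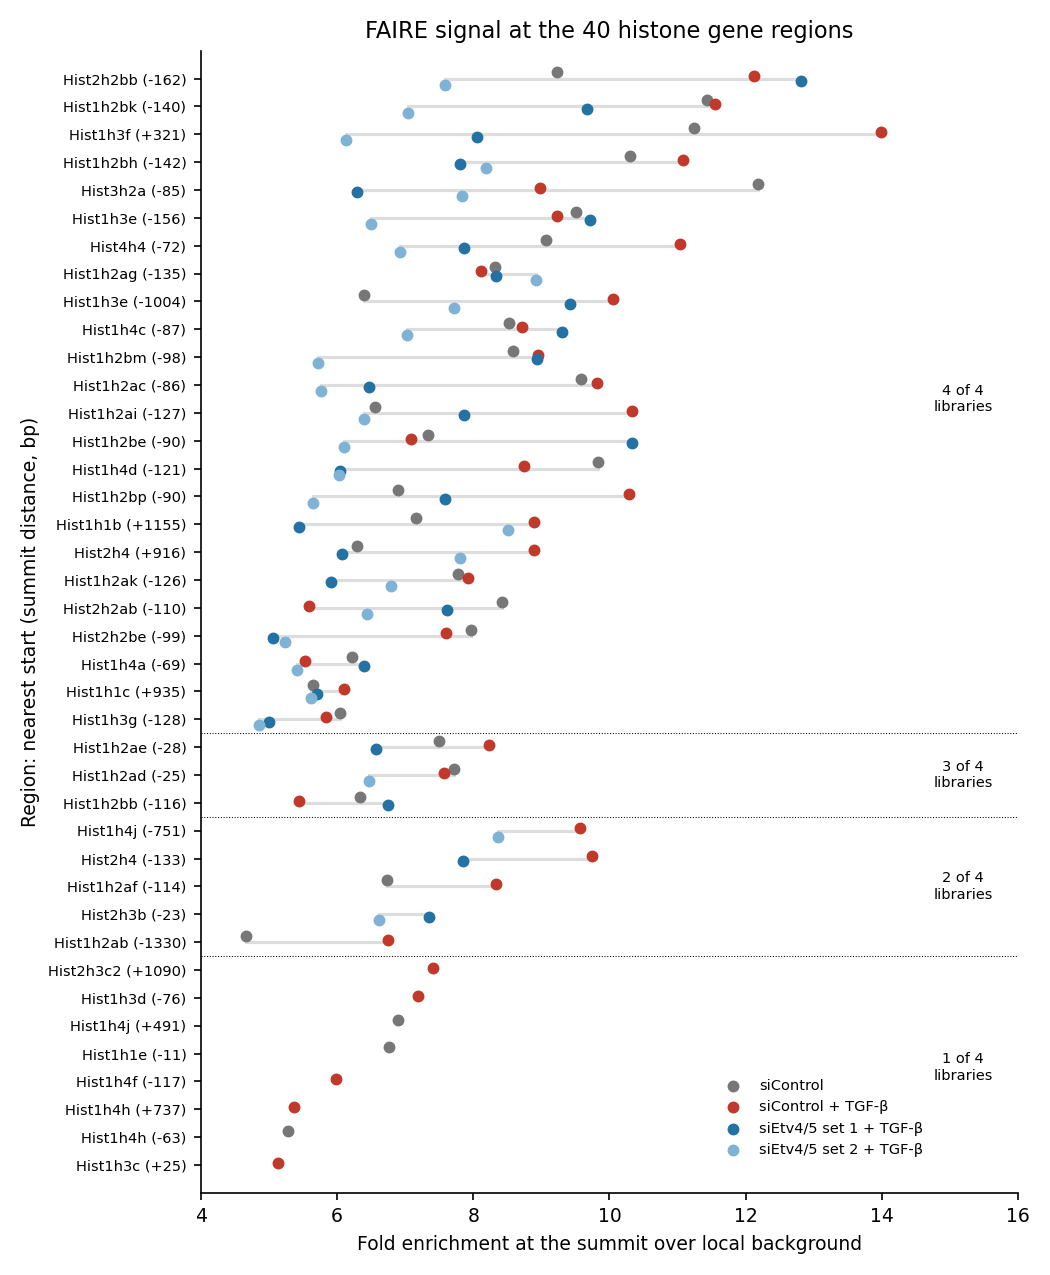
Fold enrichment at the summit over the local background (horizontal axis) in each library (coloured points) for the 40 histone gene regions, named by the nearest start with the distance of the summit in bp (minus, upstream). Regions are ordered by the number of libraries with a peak and by their mean, and a missing point means no peak. Most set 2 points lie at the left of their row, and the Hist1h2ag row is among the exceptions.

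TGF-β was compared with no TGF-β in siControl cells to ask whether histone promoters open or close with the treatment. No member with a peak in siControl lacked one in siControl + TGF-β (0 of 46), where 7.97% of all genes with a peak did. Counted by region, 3 of 32 (9.38%) had a peak in siControl and none with TGF-β, against 12.2% of promoter regions, namely the one 63 bp upstream of the Hist1h4h start (fold enrichment 5.29 in siControl), the one inside Hist1h4j (6.9) and the one at the Hist1h1e start (6.76), and each of these genes kept its call through another peak within 2 kb. Of 49 members called with TGF-β, 3 (6.12%) had no peak without it, namely Hist1h1d, Hist1h4f and Hist2h3c2, against 12.8% of all genes, and 7 of 36 regions (19.4%), against 19.2% of promoter regions. Over the 29 member regions called in both libraries, the median log2 ratio of fold enrichment was 0.03 (95% binomial interval of the median -0.04 to 0.31), against 0.09 over all promoter regions. Regions at least 1.5-fold higher numbered 2 (6.9%, against 4.04% of promoter regions) and regions at least 1.5-fold lower 1 (3.45%, against 1.02%).

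The regions that differed most with TGF-β were few and rested on small counts. The pair Hist1h2bl and Hist1h2ai went from 6.55 to 10.3 (log2 ratio 0.66), with 23 and 36 summit fragments and a depth-scaled ratio of fragments of 1.47 (exact 95% counting interval 0.847 to 2.6). The region upstream of Hist1h3e had a log2 ratio of 0.65, with 18 and 31 fragments and a ratio of 1.62 (0.876 to 3.07). The pair Hist1h2an and Hist1h2bp followed with 0.58, just under 1.5-fold. In the other direction Hist2h2ab had a log2 ratio of -0.59, with 29 and 19 fragments and a ratio of 0.615 (0.326 to 1.13), before Hist3h2a with -0.44 and Hist1h2bb with -0.22. The counting intervals given here include a ratio of 1 for each region.

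Both siRNA sets were compared with siControl, all with TGF-β, to ask whether lowering Etv4 and Etv5 alters histone promoters. The comparisons use the same siControl library. With set 1, 9 of 49 members (18.4%) lost their call, against 16.7% of all genes, and with set 2 also 9 of 49 (18.4%), against 31.7%. By region, 9 of 36 (25%) had no peak with set 1, against 22.8% of promoter regions, and 10 of 36 (27.8%) with set 2, against 39.2%. Hist1h1d, Hist1h2ab, Hist1h4f, Hist1h4h and Hist2h3c2 were without a peak in both. Set 1 also lacked Hist1h2ad, Hist1h2bf, Hist1h3d and Hist1h4j, and set 2 Hist1h2ae, Hist1h2bb, Hist1h2bg and Hist1h3c. No member was called with set 1 or set 2 and not in siControl + TGF-β, against 6.99% and 4.59% of all genes. By region, however, the one 23 bp upstream of the Hist2h3b start had a peak with set 1 (7.35) and set 2 (6.62) and in neither siControl library. In the siControl libraries Hist2h3b was called through the neighbouring Hist2h2bb region.

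With set 1, the median log2 ratio of fold enrichment over 27 member regions was -0.31 (interval -0.51 to 0.04), against -0.17 over all promoter regions, and 19 of 27 regions were lower. There were 4 regions (14.8%) at least 1.5-fold lower, against 6.82% of promoter regions, and none was 1.5-fold higher, against 0.488%. The lower regions were Hist1h3f (-0.80), Hist1h1b (-0.71), Hist1h2ac with Hist1h2bc (-0.60) and Hist2h2be with Hist2h2ac (-0.59). For Hist1h3f the fragments went from 45 to 24, a depth-scaled ratio of 0.503 (counting interval 0.293 to 0.843). The summed ratio over all promoter regions called in every library was 0.833, which lies inside this interval. The Hist1h1b interval was 0.3 to 1.02. The Hist1h2ac pair, printed above, gave a fold enrichment of 9.59 in siControl, 9.81 in siControl + TGF-β, 6.47 in set 1 and 5.76 in set 2, so that both siRNA libraries lay below both siControl libraries. The largest values in the other direction were Hist1h2be (0.54), Hist2h2ab (0.45) and Hist1h2bb (0.31). The H2B gene Hist1h2be gave 7.33, 7.08, 10.3 and 6.1, with 22 summit fragments in siControl + TGF-β and 33 with set 1, a ratio of 1.41 (0.8 to 2.54).

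With set 2, the median log2 ratio over 26 member regions was -0.35 (interval -0.65 to -0.20), against -0.39 over all promoter regions, and 24 of 26 regions were lower. There were 8 regions (30.8%) at least 1.5-fold lower, against 25.7% of promoter regions, and none was 1.5-fold higher, against 0.0387%. Hist1h3f had the largest difference, a log2 ratio of -1.19, with 45 and 16 fragments and a depth-scaled ratio of 0.28 (0.148 to 0.505). The pairs Hist1h2an with Hist1h2bp (-0.86) and Hist1h2ac with Hist1h2bc (-0.77) came next, with fragment ratios of 0.405 (0.216 to 0.735) and 0.432 (0.224 to 0.805). The summed ratio over all 4556 promoter regions called in every library was 0.613. That value lies inside the intervals of both pairs and above that of Hist1h3f. These regions were picked as the largest differences of the 26. The Hist1h2an pair gave a fold enrichment of 6.89, 10.3, 7.59 and 5.65 in siControl, siControl + TGF-β, set 1 and set 2, and was thus highest with TGF-β alone. The 2 regions that were not lower were Hist2h2ab (0.21) and the pair Hist1h2ag with Hist1h2bj (0.14). With set 2, histone promoters thus stood below siControl + TGF-β by about as much as promoters in general. With set 1 their median was further down (-0.31 against -0.17), with an interval of -0.51 to 0.04 that includes the promoter value. The promoter-wide shift itself cannot be told apart from a difference between single libraries.

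The scale mattered for the siRNA comparisons. With summit fragments scaled to the estimated depth in place of fold enrichment, the median log2 ratio was -0.41 with set 1 and -0.77 with set 2, against -0.24 and -0.68 over all promoter regions. Summed over the 24 regions called in every library, the fragments were 631 in siControl, 707 in siControl + TGF-β, 596 in set 1 and 514 in set 2. Scaled to depth, TGF-β stood at 1.05 times siControl (95% counting interval 0.943 to 1.17), set 1 at 0.794 times siControl + TGF-β (0.711 to 0.887) and set 2 at 0.572 times (0.51 to 0.642). The same ratios over all 4556 promoter regions called in every library were 1.06, 0.833 and 0.613. By type, set 2 ranged from 0.472 for H3 to 0.685 for H1, and the intervals of the 5 types overlapped.

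**Figure D5:**
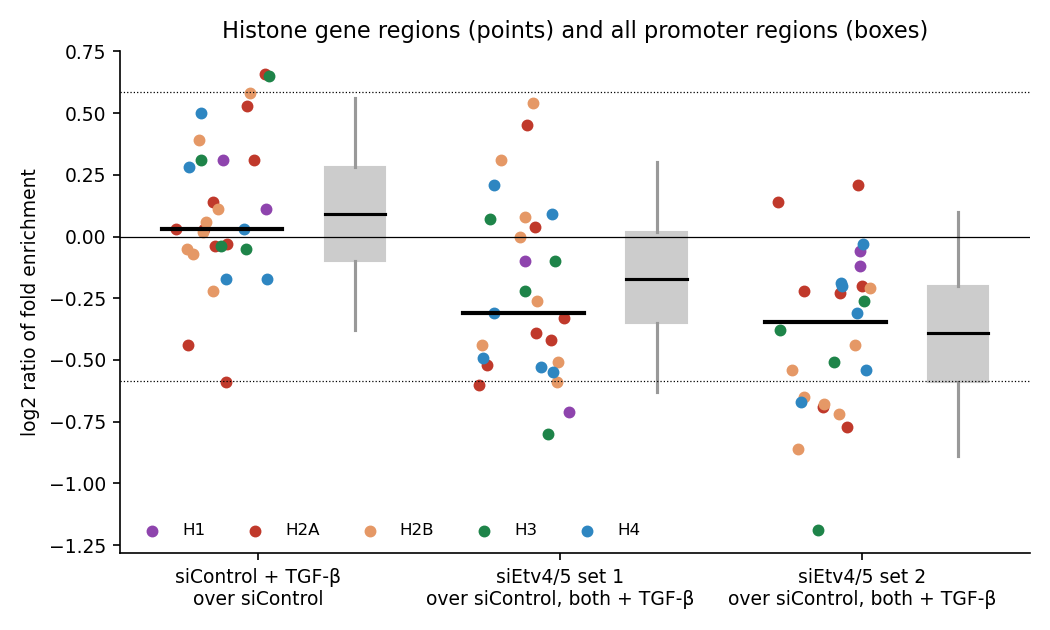
log2 ratio of fold enrichment (vertical axis) for each histone gene region called in both libraries of a comparison (points, coloured by histone type, with the median as a thick line) and for all promoter regions (box, quartiles with the median, and lines to the 5th and 95th percentiles). Dotted lines mark 1.5-fold. The histone medians were 0.03, -0.31 and -0.35, and the promoter medians were 0.09, -0.17 and -0.39.

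Genes that act on histone genes were described from a list of 27, of which 26 were found in the annotation. A peak was present at 21, 22, 23 and 20 of them in siControl, siControl + TGF-β, set 1 and set 2, and 19 had one in every library. The shares of all protein-coding genes were 36.1%, 38.1%, 34.2% and 27.3%. Npat, which encodes the coactivator that cyclin E-Cdk2 phosphorylates at histone loci, gave a fold enrichment of 8.35, 10.8, 9.67 and 7.16. Slbp, which encodes the stem-loop binding protein of histone mRNAs, gave 7.77, 10.6, 9.34 and 8.3. Over the listed genes the median log2 ratios were 0.04, -0.14 and -0.31 in the 3 comparisons, near the 0.09, -0.17 and -0.39 of all promoter regions. Replacement histone genes, which are expressed outside S phase too, had a peak at 8, 7, 7 and 5 of 11, beside the same shares of all genes. Among them H3f3b, encoding H3.3, gave 11.6, 9.58, 9.13 and 9.64.

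Other genes around the clusters were called less often than the members. Of 34 other protein-coding genes more than 4 kb but within 100 kb of a member, 11, 10, 7 and 6 had a peak in siControl, siControl + TGF-β, set 1 and set 2, that is 32.4%, 29.4%, 20.6% and 17.6%, beside 36.1%, 38.1%, 34.2% and 27.3% of all genes, and 23 had none in any library. Marker genes of cell types were read as a check of the label. Epithelial markers had peaks at 6, 6, 5 and 3 of 8, with Krt8 and Elf3 called in every library. Krt18 and Cldn4 lacked a peak with set 2, and Krt19 lacked one in siControl and with set 2. Cdh1 was called in siControl (8.1) and set 2 (7.39) only, Epcam in siControl only and Esrp1 in siControl + TGF-β only. The mesenchymal markers Fn1 and Vim were called in 4 and 3 libraries, and Cdh2, Zeb1 and Twist1 in none. No peak lay at the 4 blood or 2 fat markers, and of 3 endothelial markers Pecam1 had one in siControl + TGF-β.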

How the data were processed

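FAIRE-seq peaks were analysed in 4 groups of EpRas cells, taken from the sample labels, with 1 list each. The authors sequenced on an Ion Proton, trimmed reads to 36 bases, aligned them with bowtie2 to mm10 and ran the peak caller MACS2 (2.1.0 in the submitters' processing notes) at q below 0.0001. The deposited lists hold a fold enrichment, which is a ratio, the -log10 p-value of each summit, its -log10 q-value, a whole-number score derived by the authors' caller from it, and the summit position. The summit fragments and local background were solved from the deposited fold enrichment and Poisson -log10 p-value, and fragments came out whole within 0.05 in 100% of peaks. Depth was estimated from the lowest background with an effective genome of 1.87 Gb. Intervals of fragment ratios cover counting error only. Intervals of medians are binomial intervals over member regions, which lie in clusters and are not independent. No interval covers the spread between replicates.

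Starts came from GENCODE vM21 (GRCm38). Peaks overlapping by at least 1 bp were merged, each library entered with its strongest peak, and histone types were read from the symbols. With 1 list per group no test was made, and differences of at least 1.5-fold were counted beside all promoter regions. Named were the 10 regions of highest mean fold enrichment among those called in all 4 libraries, the 3 largest ratios in each direction of each comparison, every H1, testis, Hist2, Hist3 and Hist4 gene, and members without a peak. Members, lists and motifs were chosen with earlier results of these data known. Words of 36 bases were counted over the genome on both strands. Python 3.11.15, pandas 2.3.3, NumPy 2.4.6, SciPy 1.17.1 and numba 0.67.0 were used, and the counting code was tested on simulated data. Alternatives were other windows, peak points, starts, thresholds, list lengths, overlaps, scales and folds.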

Additional observations from a re-analysis of the deposited data

How the results depend on the processing

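Of 66 values recomputed under other settings, 58 stayed within 1.5 times the count, or within the interval of the median, given in the report, and 8 did not. With lists of equal length, 26 members in place of 40 were called with set 1, or 38.8% against 27.7% of all genes. On summit fragments scaled to depth, the median log2 ratio with set 2 was -0.77 in place of -0.35, and regions at least 1.5-fold lower numbered 9 in place of 4 with set 1 and 20 in place of 8 with set 2. On that scale 943 of 6552 promoter regions were at least 1.5-fold lower with set 1 and 3176 of 5164 with set 2, so that most promoters stood lower by that much with set 2. The cause of these differences was not tested beyond the scaling itself. At 2-fold in place of 1.5-fold, 0 regions were higher and 0 lower with TGF-β, 0 were lower with set 1 and 1, in Hist1h3f, with set 2. The direction of no median was turned by an alternative. No paired analysis was possible because each group has 1 peak list and no result comes from a test. Replicates could not be left out for the same reason. Depth limits the regions to 15 to 45 fragments at the summit, so that the counting interval of a 1.5-fold difference in a single region could include no difference, and a peak missing from a list is not evidence of closed chromatin.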

Other observations

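The histone types differed in where accessible DNA lay, which the comparisons of the report do not address. In the H1 genes Hist1h1c and Hist1h1b the summit lay 935 and 1155 bp downstream of the start in every library. At Hist1h1d a peak outside the 2 kb window lay 2959 to 3018 bp from the GENCODE start in each of the 4 libraries. Its fold enrichment was 7.49 in siControl, 10.1 in siControl + TGF-β, 6.79 with set 1 and 6.51 with set 2. Hist1h1d had no RefSeq start near its GENCODE start, so this distance rests on the GENCODE annotation alone. Near Hist4h4 a peak lay 3757 to 3787 bp from the start in siControl (7.66), siControl + TGF-β (5.95) and set 1 (6.65), and none was called there with set 2. The replacement histone gene H2afj had these same values within 2 kb of its start. This peak is therefore at the H2afj promoter and is not assigned to Hist4h4.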
